A study of Mus musculus with 2 samples.

Results

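The MYC and MAX network was followed in a mouse glioblastoma stem cell line after knockdown of Stat5b. The network was taken as 10 genes: Myc, Mycn, Mycl, Max, Mxd1, Mxd3, Mxd4, Mxi1, Mnt and Mga. Every probe that the authors' table assigns to one of these symbols was used, which gave 20 probes of the 56605 non-control probes on the array and 10 of 26883 named genes. The knockdown array held RNA from cells stably transduced with a lentiviral short hairpin RNA against Stat5b, and the control array held RNA from the same line transduced with a non-target hairpin. The line came from brain tumours induced in mice by Sleeping Beauty (SB) transposon mutagenesis, and both cultures were grown as neurospheres in serum-free medium with EGF and bFGF. There was 1 array per group, so all differences below describe 2 arrays of 1 cell line, carry no p-value, and how far separate cultures would differ is unknown.

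MYC proteins are transcription factors that bind DNA only as heterodimers with MAX, mostly at E-box sequences, and they raise expression of genes for ribosome assembly, nucleotide synthesis and cell division. The MXD proteins (Mxd1, Mxi1, Mxd3 and Mxd4), MNT and MGA compete for the same partner and the same sites and repress transcription, the MXD proteins and MNT through SIN3 corepressors. In the developing brain Mycn is known for expansion of neural progenitors, and in glioma MYC is known for maintaining stem-like cells.

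The network did not move as a block, and 1 of its 10 genes, Mxd3, differed by 2-fold or more. Mxd3 was lower on the knockdown array by 1.14 on the log2 scale, at 45.5% of control. Mycn and Mycl were lower by smaller amounts (log2 differences of -0.61 and -0.64), Max and Mga by less still (-0.34 and -0.32), while Mxd1, Mxi1 and Mxd4 were higher (0.62, 0.35 and 0.26). Myc itself (-0.11) and Mnt (-0.04) lay close to 0.

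All 10 genes had at least 1 probe well above background on both arrays, the condition for being called measured here. Of the 20 probes, 17 met it and 3 did not meet it on either array, namely the dimmer probes of Mycl, Mxd1 and Mxi1. Below, a signal is the background-corrected brightness of a probe in arbitrary units, and a difference is that of log2 signals, knockdown minus control, after each array was scaled to its 75th percentile. The ± is the error that the scanner software gives to its own signals and does not cover differences between cultures. A wider measure is the spread between different probes of 1 gene, an SD of 0.310 in log2 difference over 7244 genes. It compares probes on the same 2 arrays, so it does not cover differences between cultures either. A probe's brightness depends on its sequence, so signals are compared between arrays and never between genes.

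The probe sequences that carry the clearest results are given here, each 60 bases long and as listed in the authors' table. Both Mxd3 probes are shown because their agreement underlies the 2-fold call, both Myc probes because of the gene's central role, and a pair of Mga probes because they differed most in response.
Mxd3, brighter probe: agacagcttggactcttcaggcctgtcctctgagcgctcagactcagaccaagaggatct
Mxd3, dimmer probe: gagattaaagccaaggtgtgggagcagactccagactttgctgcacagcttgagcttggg
Myc, brighter probe: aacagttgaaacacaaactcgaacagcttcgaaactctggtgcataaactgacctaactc
Myc, dimmer probe: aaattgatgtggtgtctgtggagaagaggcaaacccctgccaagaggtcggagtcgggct
Mga, brightest probe: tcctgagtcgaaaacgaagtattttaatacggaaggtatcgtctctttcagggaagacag
Mga, next brightest probe: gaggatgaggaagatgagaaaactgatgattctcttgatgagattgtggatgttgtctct
None of the 20 probes shared a run of 15 bases with another of them, and 0 other probes on the array shared a run of 30 bases with any. Their GC content ranged from 35% to 55%.

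Among the activators, Myc, the best-known member, was nearly level. Its brighter probe had a signal of 2267 on the knockdown array and 2537 on the control array, a log2 difference of -0.16 ± 0.20. Its dimmer probe had 422 on the knockdown array and 437 on the control array, a difference of -0.05 ± 0.20. Both differences were smaller than the SD between probes of 1 gene, and 37.1% of measured genes had a lower value than the Myc mean of -0.11 ± 0.14.

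Mycn, the family member most used by neural progenitors, was read by 1 probe, with a signal of 125.7 on the knockdown array and 191.1 on the control array. Its log2 difference was -0.61 ± 0.21, 65.7% of control, and 7.92% of measured genes had a lower value. Mycl, first found in lung carcinoma, was dim. Its measured probe had 39.9 on the knockdown array and 62.0 on the control array (-0.64 ± 0.24, or 64.3% of control). Before background correction its raw signal was 76 on the knockdown array and 101 on the control array, where negative controls had medians of 36 and 35.5. Under normexp, another background correction, Mycl was at -0.33. The other Mycl probe had 6.03 on the knockdown array and 8.03 on the control array and was dim on both. All 3 MYC genes thus lay below 0, Mycn and Mycl by more than the SD between probes and Myc by less.

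Max, the obligate partner of the whole network, was lower with both probes. The brighter one had a signal of 6348 on the knockdown array and 7450 on the control array (-0.23 ± 0.20). The other had 490 on the knockdown array and 669 on the control array (-0.45 ± 0.20), and the scanner files pair it with a different Max transcript. The mean was -0.34 ± 0.14, or 78.9% of control, and the gap between the probes, 0.22, was under the SD between probes of 1 gene.

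**Figure D1:**
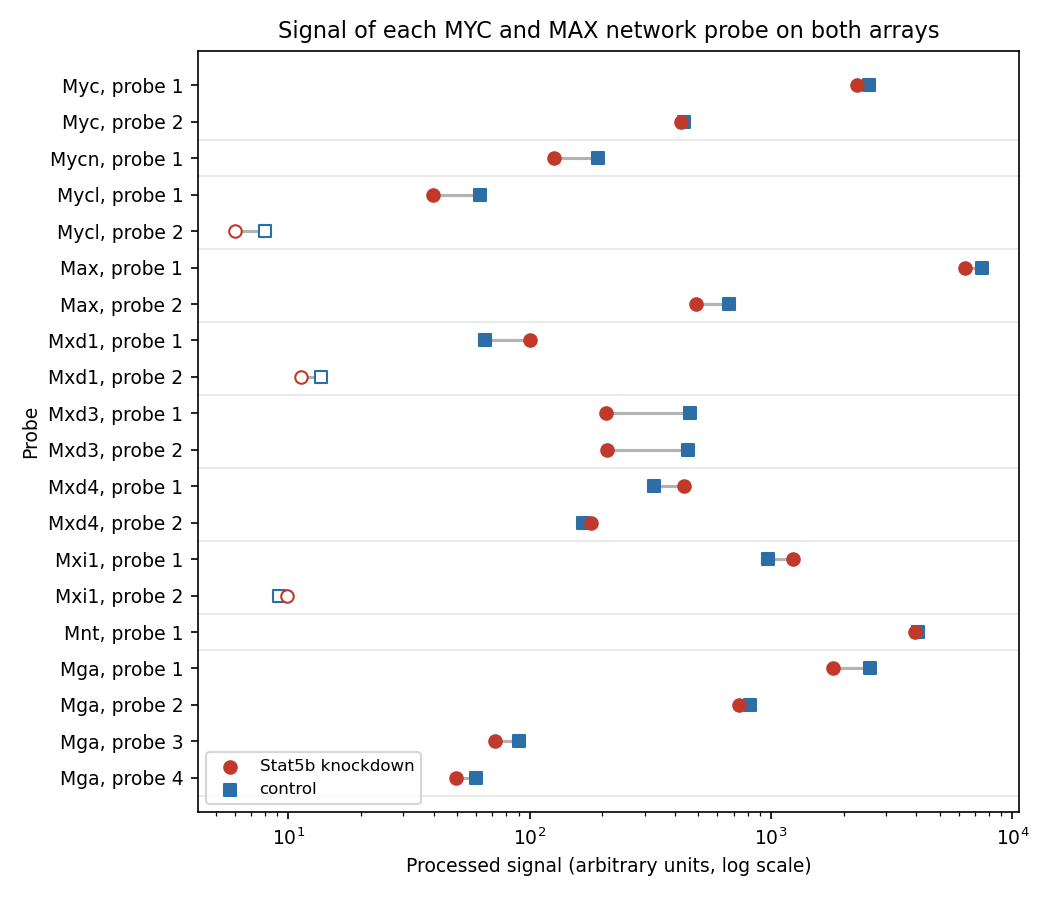
Processed signal (horizontal axis, log scale, arbitrary units) of each of the 20 network probes on the knockdown array (red circles) and the control array (blue squares), 1 array each; open symbols mark probes not well above background on either array, and probes of a gene run from brightest to dimmest on the control array. The widest gaps are those of the 2 Mxd3 probes, at 208 on the knockdown array and 455 to 460 on the control array.

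Mxd3 stood apart from the other MXD repressors. In mice Mxd3 is known as the MXD gene expressed in dividing progenitors around S phase, whereas Mxd1, Mxi1 and Mxd4 are known from cells leaving the cycle or differentiating. The brighter Mxd3 probe had a signal of 208.0 on the knockdown array and 459.9 on the control array (-1.15 ± 0.21). The dimmer one had 208.5 on the knockdown array and 454.9 on the control array (-1.13 ± 0.21). The probes lay 0.0187 apart in log2 difference, although they share no run of 15 bases. The mean, -1.14 ± 0.15, put control 2.20-fold above knockdown, and 1.6% of measured genes had a lower value. Values lower by 2-fold or more were held by 1 of the 10 network genes and 2.41% of all measured genes. Values higher by that much were held by 0 network genes and 3.67% of all measured genes, and either of these in 1 network gene and 6.08% of all. The Mxd3 call depended on the background correction, since with normexp the difference was -0.96.

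The remaining MXD genes were higher on the knockdown array, each by less than 2-fold. Mxd1 had a signal of 100.2 on the knockdown array and 65.3 on the control array with its measured probe, 0.62 ± 0.22 higher in log2, 153% of control. A second Mxd1 probe, not well above background on either array, had 11.3 on the knockdown array and 13.7 on the control array and went the other way (-0.27), so the mean over both was 0.17. Mxi1 had 1235 on the knockdown array and 970 on the control array (0.35 ± 0.20). Its dim probe, had 9.90 on the knockdown array and 9.18 on the control array and did not count as measured.

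Mxd4 had probes that differed in size of response. The brighter had a signal of 438 on the knockdown array and 327 on the control array (0.42 ± 0.20), and the dimmer 179 on the knockdown array and 167 on the control array (0.10 ± 0.21). The dimmer one lay among the last 64 rows of the array, and without those rows Mxd4 was at 0.42. Of the 4 MXD genes, 3 were above 0 and 1 below, and their differences spanned -1.14 to 0.62.

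The other antagonists did not follow the higher MXD genes. Mnt, a broadly expressed repressor, had a signal of 3960 on the knockdown array and 4078 on the control array (-0.04 ± 0.20). Mga, a large protein with a T-box domain that also joins a non-canonical Polycomb complex, was below 0 with all 4 probes. Its brightest probe had 1808 on the knockdown array and 2582 on the control array (-0.52 ± 0.20). The next had 735 on the knockdown array and 818 on the control array (-0.16 ± 0.20). The dim pair had 71.8 and 49.4 on the knockdown array and 90.3 and 59.8 on the control array, with differences of -0.33 and -0.28. The Mga mean was -0.32 ± 0.11, or 80.1% of control, with a gap of 0.36 between its extreme probes.

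**Figure D2:**
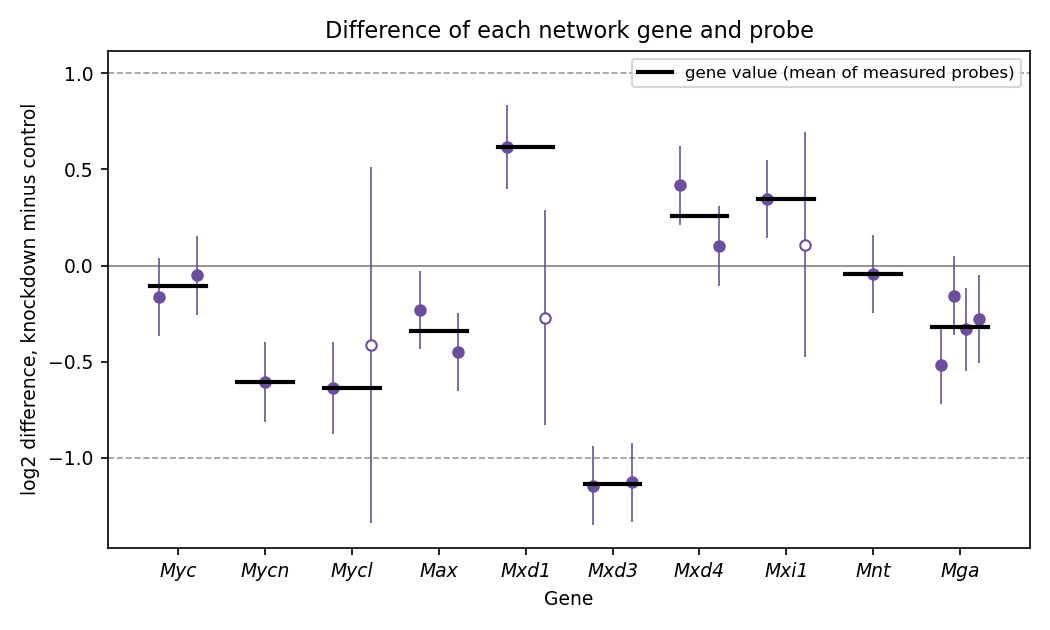
Log2 difference, knockdown minus control, of each network probe (circles; open where not well above background on either array) with the scanner software's error as bars, and the gene value as a black line. Dashed lines mark 2-fold; Mxd3, at -1.14, lies past it, and the other 9 genes lie between -0.64 and 0.62.

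Across the network, 7 of 10 genes lay below 0, against 48.9% of all measured genes, and 3 of 10 genes lay above it, against 51.1%. By probe, 13 of the 17 measured lay below 0, but several are of the same gene, and the share over all probes was not taken. The median of the 10 genes was -0.21, beside 0.01 over all 16354 measured genes. The differences of 7 genes were larger than the SD between probes, 5 of them below 0 and 2 above, and 43.4% of all measured genes had differences of that size. With the brighter probes alone, 6 network genes were measured, 4 of them below 0, and the median was -0.08. Both Mxd3 probes fell under that level, so their gene was not among the 6.

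**Figure D3:**
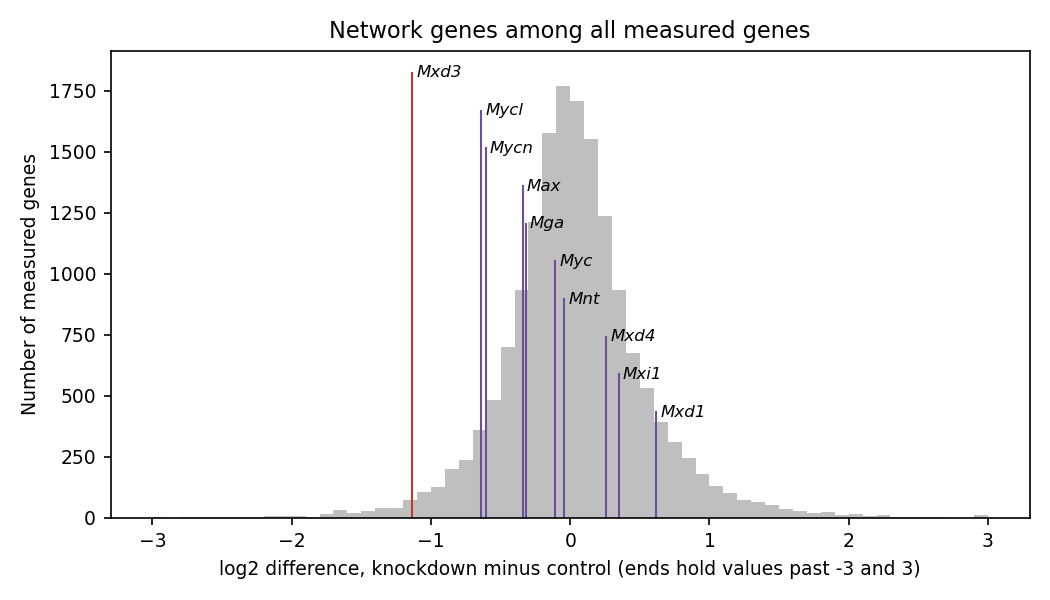
Number of measured genes (vertical axis) by log2 difference, knockdown minus control, in steps of 0.1 for all 16354 measured genes (grey, end bars holding values past the axis), with the 10 network genes marked by lines whose heights carry no value. Mxd3 lies in the lower tail, and Myc and Mnt lie near the centre of the distribution.

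The promoters were searched for letters of factors that act on or within the network, using the RefSeq windows of build GRCm38.p6 from 250 bases before to 50 after each gene's start. Of the network genes 9 had a window, all but Myc, with 11 windows in all and 3 for Mxi1. On both strands the E-box CACGTG was found in 3 genes, Max, Mxd4 and Mnt, against 8.09% of all 27025 genes with a window. The STAT motif TTCNNNGAA was found in 0 of the network genes and in 9.55% of all genes. The E2F words TTTCCCGC, TTTCGCGC, TTTGCCGC and TTTGGCGC were found in Mycn alone among them and in 2.60% of all genes. The 250 bases before the start of Mycn, lower on the knockdown array, and of Mxd4, higher on it, are shown with the matches in capitals, E2F words in Mycn and the E-box in Mxd4.
Mycn, chr12:12941837-12942086, minus strand: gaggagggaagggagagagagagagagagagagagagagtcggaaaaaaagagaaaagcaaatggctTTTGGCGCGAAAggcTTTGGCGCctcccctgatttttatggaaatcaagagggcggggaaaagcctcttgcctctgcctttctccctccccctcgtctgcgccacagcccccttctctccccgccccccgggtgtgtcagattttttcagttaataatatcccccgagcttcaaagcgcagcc
Mxd4, chr5:34187711-34187960, minus strand: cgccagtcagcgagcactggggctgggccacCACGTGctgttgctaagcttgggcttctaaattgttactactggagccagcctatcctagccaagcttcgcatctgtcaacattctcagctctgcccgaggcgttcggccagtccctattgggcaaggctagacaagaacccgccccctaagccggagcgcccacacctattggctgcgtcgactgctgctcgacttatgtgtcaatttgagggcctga
Mycn held 3 E2F matches, which begin 183, 179 and 168 bases before the start, the 183 and 179 ones overlapping on opposite strands. The Mxd4 E-box begins 219 bases before the start, that of Mnt 123 and that of Max 3. Mxd3, the gene with the largest difference in the network, held none of these letters in its window. A match is a description of letters in these windows only.

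MLX and its partners form a parallel arm that shares Mxd1, Mxd4 and Mnt proteins with the network and senses glucose products. Of 5 genes listed, 5 were measured and 4 (80%) lay above 0, beside 51.1% of all measured genes. Their median was 0.33, and 0 reached 2-fold, beside 6.08% of all. Txnip, an inhibitor of glucose uptake and a known target of the MLX partner MondoA, had a mean signal of 5606 on the knockdown array and 3580 on the control array (0.53 ± 0.14). Mlxip, which encodes MondoA, was at 0.38 ± 0.21 and Mlx at 0.33 ± 0.15, while Mlxipl, which encodes the carbohydrate response factor ChREBP, was at -0.19 ± 0.12. The Txnip relative Arrdc4 was at 0.25 ± 0.14, from probes at -0.16 and 0.66. A second, dim Mlxip probe, in the last 64 rows, brought Mlxip to -0.37 when dim probes were kept.

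Of 3 other genes of the family and locus, 2 were measured. Bmyc, a rodent relative that lacks the DNA-binding part, was at 0.45 ± 0.21. Pvt1, the long non-coding RNA beside Myc, was at 0.07 ± 0.14. Mycs, a retrogene of the family, was too dim to be measured.

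Cofactors and corepressors lay near 0 as lists. Of 17 MYC cofactors measured, 7 (41.2%) were above 0 and 10 below, beside 51.1% of all measured genes above 0. Their median was -0.03, and 0 were past 2-fold, beside 6.08% of all. The helicase Ruvbl1 was lowest at -0.81 ± 0.20, with a signal of 10982 on the knockdown array and 19176 on the control array. Wdr5, a chromatin scaffold that helps bring MYC to genes, was at -0.72 ± 0.14, from probes at -1.06 and -0.39. Cdk9, the elongation kinase, was at 0.53 ± 0.14. The remodeller subunit Smarcb1 was at 0.33 ± 0.16, from a bright probe at 0.11 and a dim one at 0.56. Of 15 corepressor genes that serve the MXD proteins, 5 (33.3%) were above 0 and 10 below, with a median of -0.05. The deacetylase Hdac3 lay just short of 2-fold at -0.998 ± 0.15, and past it at -1.01 with median scaling and -1.03 with its brightest probe. The scaffold Sin3a was at -0.27 ± 0.20 and the deacetylase Hdac1 at 0.28 ± 0.12.

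The partners of MGA in its Polycomb complex had a median of -0.07, with 5 of 13 (38.5%) above 0, beside 51.1% of all measured genes. Values lower by 2-fold or more were held by 1 of the 13 (7.69%), beside 2.41% of all. That one was Tfdp1, the dimer partner of E2F factors, with a mean signal of 828 on the knockdown array and 2311 on the control array (-1.47 ± 0.14, probes at -1.56 and -1.38). The ubiquitin ligase Ring1 was at 0.56 ± 0.20. Wdr5, Hdac1 and Hdac2 also belong to the lists above.

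Genes that set MYC protein stability went both ways. Of 24 measured, 10 (41.7%) were above 0 and 14 below, beside 51.1% of all measured genes above 0, with a median of -0.15. Values lower by 2-fold or more were held by 1 of the 24 (4.17%), beside 2.41% of all. Skp2, a ubiquitin ligase subunit that acts on MYC and on the inhibitor p27, was past 2-fold, with a signal of 1003 on the knockdown array and 2438 on the control array (-1.28 ± 0.20). Another Skp2 probe was too dim to count, and with it kept Skp2 was at -0.58. The kinase Pim1, which stabilises MYC, was at -0.90 ± 0.21 from a probe in the last 64 rows. Gsk3b, the kinase that marks MYC for degradation, was highest at 0.86 ± 0.12, but its 4 probes ranged from 0.38 to 1.95, and without the last 64 rows it was past 2-fold at 1.17. Fbxo28 was at 0.59 ± 0.14, from probes at 0.06 and 1.12. These values concern transcripts, and no protein was measured.

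Genes that MYC is known to activate were mostly lower on the knockdown array, by small amounts. Of 36 nucleolar and ribosome assembly genes, 30 (83.3%) lay below 0, against 48.9% of all measured genes. Their median was -0.28, and 0 were past 2-fold, beside 6.08% of all. The RNA helicase Ddx21 had a signal of 2967 on the knockdown array and 5615 on the control array (-0.92 ± 0.20). Mrto4, a factor of the large ribosomal subunit, was at -0.78 ± 0.20 from a probe in the last 64 rows. At the upper end were Bysl at 0.17 ± 0.20 and Imp4 at 0.15 ± 0.12 (Imp4 from probes between -0.20 and 0.81).

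Of 30 metabolic targets, 23 (76.7%) lay below 0, against 48.9% of all measured genes, with a median of -0.20. Values lower by 2-fold or more were held by 1 of the 30 (3.33%), near the 2.41% of all measured genes. This gene was Odc1, the rate-limiting enzyme of polyamine synthesis and a classic MYC target. It had a mean signal of 9738 on the knockdown array and 21369 on the control array (-1.19 ± 0.14), and its probes were at -1.25 and -1.12. It was past 2-fold under each of the 9 processing alternatives, from -1.25 to -1.10. Tfam, which maintains mitochondrial DNA, was at -0.75 ± 0.14, Prps2 at 0.15 ± 0.14 and prohibitin (Phb) at 0.24 ± 0.14.

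Of 18 cell cycle targets, 13 (72.2%) lay below 0, with a median of -0.41, and 4 were lower by 2-fold or more, beside 48.9% and 2.41% of all measured genes. The 4 were Id2, Ccne1, E2f2 and, given above, Skp2. Id2 (-1.97 ± 0.15), an inhibitor of differentiation factors, had probes at -2.35 and -1.58 and was at -1.53 with normexp. Ccne1, the cyclin of the G1 to S step, was at -1.75 ± 0.20. E2f2, a factor of S phase genes, was at -1.46 ± 0.14. E2f1 was at 0.40 ± 0.20 from a probe in the last 64 rows, and the telomerase gene Tert was at 0.14 ± 0.14 with a mean signal of 76.0 on the knockdown array and 72.8 on the control array. Many of these genes are also known targets of other factors.

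Genes that MYC is known to repress had a median of 0.00, with 9 of 17 (52.9%) above 0, near the 51.1% of all measured genes. The 3 of 17 that were higher by 2-fold or more, beside 3.67% of all measured genes, were Pdgfrb (2.19 ± 0.33), Col1a2 (1.63 ± 0.19) and Thbs1 (1.03 ± 0.15). With normexp Pdgfrb was at 0.76 and Thbs1 at 0.70, and with dim probes kept Col1a2 was at 0.23. At the lower end were Cebpa, a differentiation factor of other tissues, at -0.83 ± 0.20 and the stress gene Gadd45a at -0.70 ± 0.20. Without the last 64 rows the median of the list was 0.45. Pdgfrb and Col1a2 are also markers of mural cells and fibroblasts, a list of 7 genes of which 6 were measured and 5 lay above 0. Its summed signal was 1222 on the knockdown array and 485 on the control array, of which Col1a2 gave 886 and 240. Without Col1a2 the sums were 336 on the knockdown array and 245 on the control array. Its member Cdh5 went the other way, at -0.75 ± 0.23. Lum did too, measurable on the control array only, with a signal of 3.21 on the knockdown array and 76.8 on the control array (control at least 5.92-fold above knockdown). Their part in the result was not tested.

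**Figure D4:**
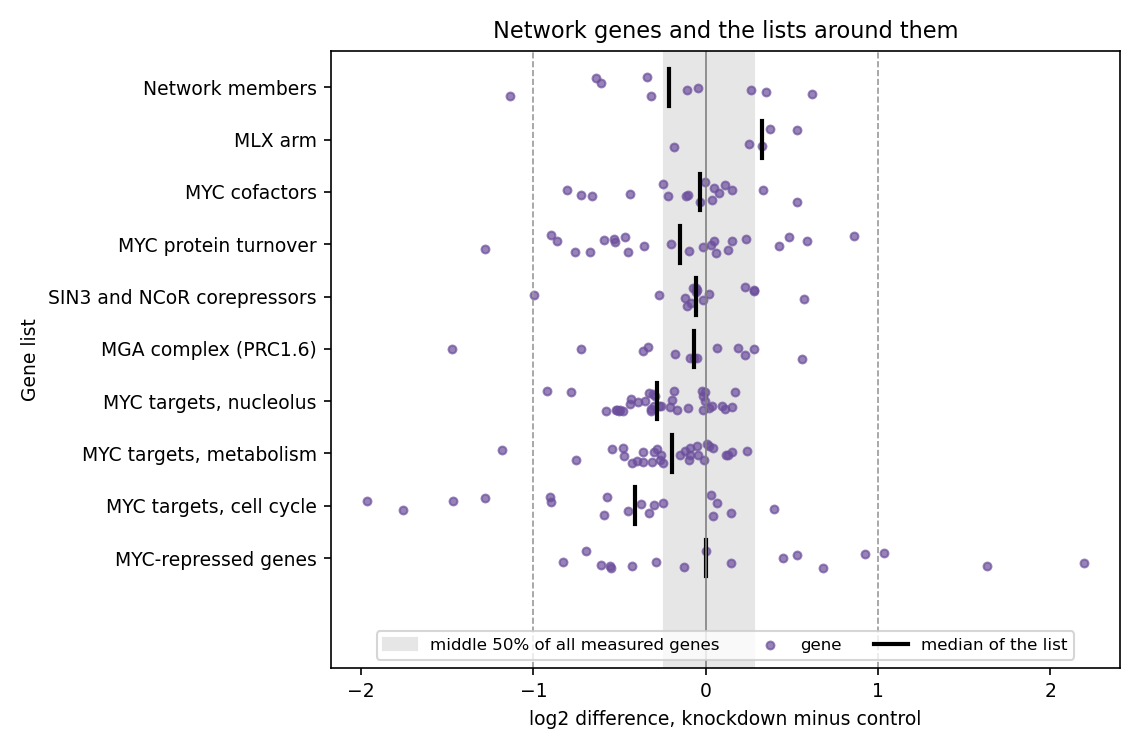
Log2 difference, knockdown minus control, of each measured gene (dots) in the network and in the lists around it, with the list median as a black bar and the middle 50% of all measured genes shaded. The 3 lists of MYC-activated genes have medians of -0.28, -0.20 and -0.41, and the MLX arm has a median of 0.33.

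As a check of the labels, the brighter Stat5b probe had a signal of 498 on the knockdown array and 1991 on the control array, which is 25% of control, and a dimmer one was measurable on the control array only. Of 8 neural and glioma stem cell markers, 6 were measured, with gene means between -0.20 and 0.06. Measured probes of Prom1 disagreed, at -0.46 and 0.49, as did those of Cd44 (-0.44 to 0.31) and Msi1 (-0.38 to 0.18). Among the 6 markers, Nes had a signal of 15868 on the knockdown array and 18174 on the control array. Sox2 was too dim to be measured on both, and Olig2, in the last 64 rows, was measurable on the knockdown array only (at least 4.39-fold higher). Of the astrocyte markers 3 of 6 were measured, with a median of 0.94 and a summed signal of 170 on the knockdown array and 124 on the control array. That median is the value of Aqp4, from dim measured probes that disagreed, at -0.02 and 1.90. Gja1 was at 0.98 ± 0.26 from 1 of its 8 probes, also dim, and Aldh1l1 was at -0.08 ± 0.23. Beside them S100b was measurable on the knockdown array only (at least 10.1-fold higher), Gfap on the control array only (control at least 1.53-fold above knockdown), and Slc1a3 on neither. Neuron markers (4 of 6 measured) had a median of 0.05 and oligodendrocyte lineage markers (5 of 6) of 0.14. Microglia and immune markers (5 of 7) had a median of 0.22, with 4 above 0 and 1 below, and Aif1 and Cx3cr1 not well above background. Tmem119 was past 2-fold at 1.80 ± 0.24, from 1 dim probe with a signal of 114 on the knockdown array and 32.7 on the control array. The marker below 0 was Cd68 (-0.48 ± 0.12), with a mean signal of 1039 on the knockdown array and 1468 on the control array. The part of any of these in the network's values was not tested, and in a bulk RNA sample fewer cells of a type and less RNA per cell cannot be told apart.

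The network values moved little with most processing choices, but several choices could change little. The authors' table and median scaling shift all genes of an array by 1 constant. A probe filter leaves a gene as it was where it keeps the same probes. Mycn, with 1 probe, thus stayed at -0.61 with no filter, the brightest probe, RefSeq mRNA probes alone and without the last 64 rows. Each of the 10 genes kept its sign under all 9 alternatives that gave it a value, and Mxd3 ranged from -1.15 to -0.96.

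**Figure D5:**
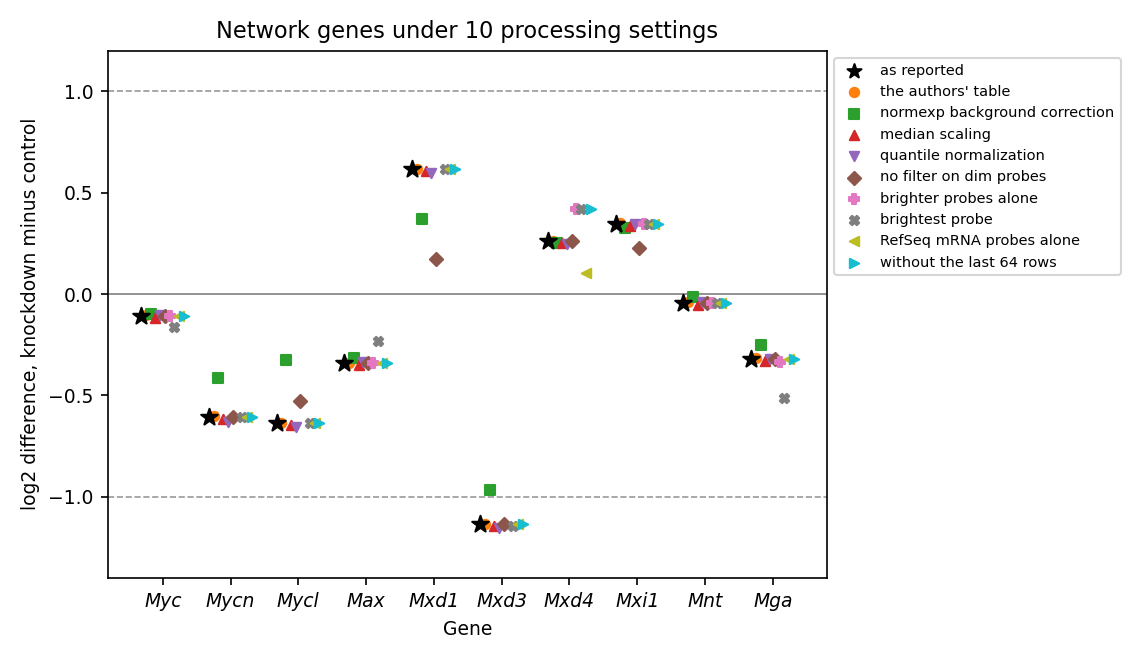
Log2 difference, knockdown minus control, of each network gene as reported (black star) and under the 9 processing alternatives (coloured symbols); a missing symbol means that the alternative left no measured probe. No gene changes sign. Normexp shrinks Mycl from -0.64 to -0.33, Mxd1 from 0.62 to 0.37, Mycn from -0.61 to -0.41 and Mxd3 from -1.14 to -0.96. With no filter on dim probes Mxd1 is at 0.17.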

How the data were processed

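Total RNA of 1 knockdown and 1 control culture was labelled with Cy3 and hybridised to 1 Agilent mouse array each, both on 1 slide. Per the file headers, the scanner intensities (processed signals) were background-corrected by Feature Extraction 12.1.0.3 with protocol GE1_1200_Jun14. The authors' deposited table holds log2 signals that differ from log2 of the scanner's processed signal by 1 constant per array, 8.94 on each. That table has medians of -3.83 on both arrays. What the constant stands for is not given in the sources used here.

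From the intensities, control spots and spots flagged as outliers (94 knockdown, 112 control) were left out, log2 values were averaged over spots of a probe, and each array's 75th percentile (signals of 494 and 493) was subtracted. A probe counted when well above background on both arrays, and a gene took the mean of such probes. 33155 of 56605 probes passed on the knockdown array and 33703 on the control array. With 2 arrays, their number limits the precision, and 2-fold is a rule of size, not a test. Names came from accessions or symbols through RefSeq (GRCm38.p6), with 34566 probes matched by accession, 9190 by symbol and 275 by synonym, 2145 left with the file's name and 10429 without one.

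The members and lists were chosen with earlier results of these data known. All 10 members are named. Of each other list, the text names genes at least 2-fold higher or lower and otherwise those among the 2 highest and 2 lowest differences. It also names, chosen after their values were seen, markers that were not measured on both arrays. Mlx, Mycs, Hdac2, Cd44 and Msi1 are named outside this rule. A gene that this rule names is not reported here. Alternatives tried were the authors' table, normexp, median and quantile scaling, no filter on dim probes, brighter probes alone, the brightest probe, RefSeq mRNA probes alone and leaving out the last 64 rows. The scaling and the averaging over probes were tested on simulated data, with planted differences larger than any in the network. Background correction and the filter on dim probes were not part of that test.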

Additional observations from a re-analysis of the deposited data

How the results depend on the processing

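Of the values recomputed under the 9 alternatives, 539 moved by less than the spread between probes of 1 gene (for counts, stayed within 1.5 times), and 32 moved further. The 539 include values that an alternative could not change, because it kept the same probes or only shifted each array by a constant. None of the values past 2-fold changed sign, but smaller ones did, 6 of genes and 5 of medians. Mlxip (-0.37) and Pvt1 (-0.18) lay below 0 with no filter on dim probes, and Arrdc4 (-0.16), Imp4 (-0.20) and Tert (-0.09) with the brightest probe, Imp4 also with RefSeq mRNA probes alone. With normexp, Mycl was at -0.33, 0 network genes were at least 2-fold lower, and over the whole array 194 genes were at least 2-fold higher and 168 lower. With no filter on dim probes, Mxd1 was at 0.17, the other MYC family genes had a median of -0.18, 1282 genes were at least 2-fold higher and 1000 lower, and the median of all genes was 0.10. With brighter probes alone, 6 network genes were measured, 4 lay below 0 and 0 were at least 2-fold lower, since Mxd3 was not among them, with 210 genes higher and 229 lower over the array. Without the last 64 rows the MYC-repressed median was 0.45. The cause of these shifts was not tested. Medians of the MYC protein turnover, corepressor, other MYC family and MYC-repressed lists crossed 0 under at least 1 alternative, so no direction is given for them. No replicate could be left out and no paired analysis was possible because there was 1 array per group. Mycl and Mxd1 have 1 measured probe each, both dim, and low signal over background limits them. Mycn also has 1 measured probe, under the level of the brighter probes, and was at -0.41 with normexp.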
